A study of Mus musculus with 6 samples.

Results

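Haemoglobin is built from alpha-type and beta-type globin chains, and the 7 mouse genes followed here encode chains of both types and of both life stages. The alpha-type genes are Hba-x, which encodes the embryonic zeta chain, and Hba-a1 and Hba-a2, which encode the adult alpha chain. The beta-type genes are Hbb-y and Hbb-bh1, which encode the embryonic epsilon-y and beta-h1 chains, and Hbb-bt and Hbb-bs, which encode the adult beta chains. They were picked by gene symbol, 7 of 32285 genes in the count matrix. Their RNA was described in 2 sets of cells. Globin-rich cells, in which the 7 genes together took at least 20% of the unique molecular identifiers (UMIs, each marking 1 captured RNA molecule), numbered 1481 of 43370 kept cells. The other 41889 kept cells were used to describe the globin RNA found in cells of other kinds.

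The first red cells of a mouse embryo, the primitive erythroblasts, arise in the yolk sac and enter the circulation while they still carry a nucleus. They make mostly embryonic chains, and adult chains come to dominate in the definitive red cells that the fetal liver makes later. Within each cluster the embryonic genes lie nearest the distant enhancers, which are known to act on the genes in turn during development.

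The study profiled single cells of the microdissected cardiogenic region of wild type C57BL/6 mouse embryos at E10.5, with the 10x Genomics Chromium chemistry that reads the 3′ end of transcripts. All embryos shared that strain and genotype and differed by their mother: 3 samples came from vehicle-treated females of normal blood glucose and 3 from hyperglycaemic females given streptozotocin, a toxin of the insulin-making beta cells, and fathers had normal blood glucose. Neither Cre nor transgene is named, and other mesoderm, ectoderm and endoderm were dissected along. The sample descriptions name a chromatin assay, while titles, library source and kit name RNA, and the values are RNA counts. The 6 libraries are told apart by a number at the end of each barcode, and no file used here pairs that number with a sample, so streptozotocin was not compared with vehicle, unlabelled libraries were not used as replicates in a test, and values are given pooled or by library number, without a group. Whether a library is 1 embryo is not stated.

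The matrix held 53362 barcodes, 7533 to 10000 a library, with a median of 14342 to 27576.5 UMIs per barcode. Barcodes counted as cells from 1000 detected genes upward, with mitochondrial genes taking no more than 10% of UMIs. Libraries shared barcode sequences: 2777 of 49236 sequences occurred in more than 1 library, most often between libraries 4 and 6 (1597), 5 and 6 (1423) and 4 and 5 (1003). No barcode was globin-rich in more than 1 library. Of 769 barcodes that passed 20% globins but were not kept, 669 carried the sequence of a globin-rich cell of another library, and the 769 held a median of 673 UMIs.

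The beta-type genes lie on chromosome 7, minus strand, in the order Hbb-bt (chr7:103812524-103813996), Hbb-bs (chr7:103826534-103828096), Hbb-bh1 (chr7:103841637-103843164) and Hbb-y (chr7:103851749-103853216) of the GRCm38 annotation in GENCODE M21. The alpha-type genes lie on chromosome 11, plus strand, as Hba-x (chr11:32276400-32278116), Hba-a1 (chr11:32283511-32284465) and Hba-a2 (chr11:32296489-32297298). Each has 3 exons. The transcripts of Hba-a1 and Hba-a2 were the same in 537 of 538 aligned columns, with 0 differences in the 74 columns of the 3′ untranslated region. How the authors' counting treated reads that fit both genes is not given in the sources used here. The split between Hba-a1 and Hba-a2 is therefore uncertain. Their sum may be too low if reads fitting both genes were left out. Every share or ratio that uses the sum carries that limit, as the Hba-x share of alpha-type UMIs does. Hbb-bt and Hbb-bs were the same in 582 of 630 columns and differed in 37 of the 132 columns of the 3′ untranslated region, the end that this chemistry reads. Outside it they differed in 11 of 498 columns, with an identical run of 430. Reads that fell there could fit both genes, so the Hbb-bt and Hbb-bs counts may also be affected.

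Promoter windows were matched for 6 of the 7 genes, and Hbb-bh1 was not matched. The stretches upstream of the RefSeq start sites (build GRCm38.p6) are shown for the embryonic gene on which the results below turn and for an adult gene beside it. Capitals mark CCACCC (a box known to bind Kruppel-like factors), CCAAT, and TATAA or ATAAA (TATA-like boxes). The Hbb-y stretch is chr7:103853217-103853357, minus strand, and the Hba-a2 stretch is chr11:32296342-32296488, plus strand, both 5′ to 3′ and without the bases inside the gene models.
Hbb-y: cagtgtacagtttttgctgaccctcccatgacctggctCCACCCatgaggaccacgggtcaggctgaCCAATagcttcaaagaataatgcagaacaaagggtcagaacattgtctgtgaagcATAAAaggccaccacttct
Hba-a2: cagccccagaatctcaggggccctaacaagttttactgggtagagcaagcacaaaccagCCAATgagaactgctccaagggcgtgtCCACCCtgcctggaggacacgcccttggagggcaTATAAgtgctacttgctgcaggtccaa
Over the 150 bases before the start, each of these 2 genes held 1 CCACCC and 1 CCAAT. The TATA-like box was TATAA for Hba-a2 and ATAAA for Hbb-y. Of 32851 RefSeq promoter windows of the same length, 19.7% held CCACCC on either strand and 24.5% held CCAAT. The share was 14.2% for the TATAA form of the box and 24.1% for the other form, which can overlap each other. The CCACCC lay 112 to 107 bases before the start of Hbb-y and 64 to 59 before that of Hba-a2. GATAA, the core bound by GATA factors, was present in the Hba-x window and in 13.3% of all windows. The Hba-a1 window was identical to that of Hba-a2 over 297 aligned columns. Hbb-bt held CCACCC and Hbb-bs held CACACCC, which 4.54% of all windows hold.

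Cells fell into 2 separate groups by globin share. Of the kept cells, 41842 had globins under 1% of their UMIs, 47 lay between 1% and 20%, and 1481 lay above. Globin-rich cells made up 3.11%, 2.07%, 6.78%, 2.17%, 3.16% and 3.62% of the kept cells of libraries 1 to 6, so library 3 was the highest. In a droplet sample of dissected tissue, that share can follow blood left in the tissue as well as the cells' number in the embryo, and the 2 cannot be told apart. The median globin-rich cell held 65192 UMIs from 5019 genes, against 28212 UMIs from 5947 genes in other cells, and devoted 40.8% of its UMIs to the 7 genes. The 21 cells just under the limit, at 15 to 20% globins, had a median of 8006 genes. The 29 cells just above it, at 20 to 25%, had 7392, and 79.3% of them carried at least 3 markers of another cell type. That share was 8.23% among the 814 cells at 40 to 50%. No doublet caller was run, so droplets that held an erythroid and another cell stayed in.

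**Figure D1:**
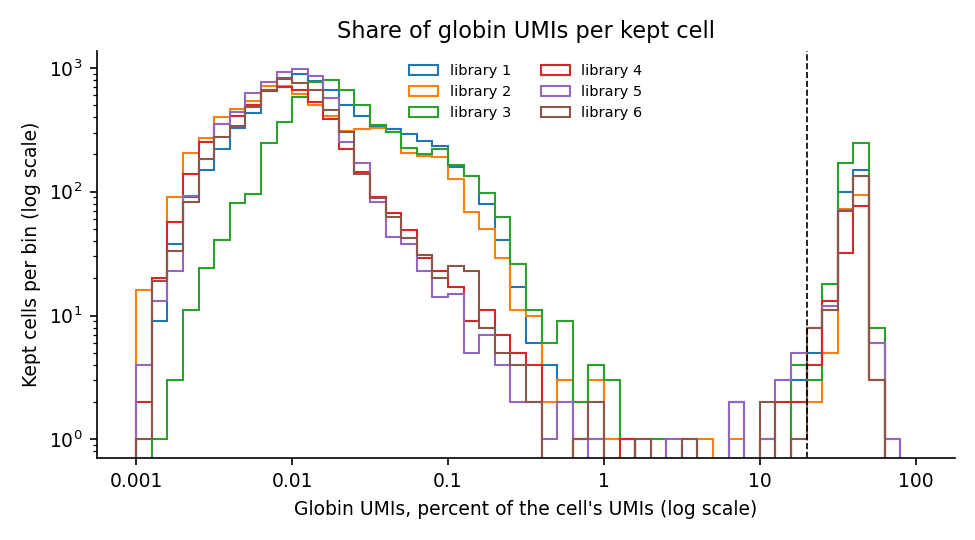
Histogram of the globin share of UMIs per kept cell (log scale) against the number of cells per bin (log scale), 1 line per library; cells without a globin UMI are not drawn. The dashed line is the 20% limit, and the low and high peaks are separated by a range that only 47 cells occupied.

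All 10 erythroid markers were present in the globin-rich cells, at a summed 3339 counts per 1000000 non-globin UMIs (CPM) against 33.6 in other cells, and each of the 1481 cells carried at least 3 of them. Pooled over libraries, the summed markers of each other type were below their level in other cells. The largest sum was that of 8 cardiomyocyte genes at 152 CPM (41.1 to 311 over libraries) against 4688 CPM in other cells. The endothelium list summed to 45.2 CPM against 218, epithelium to 35.2 against 471, mesenchyme to 28.2 against 529, neuron to 13.7 against 92.5, myeloid to 0.874 against 12.4 and hepatocyte to 0.252 against 8.40. The megakaryocyte and platelet list was closest, at 21.8 against 42.1 CPM (17.5 to 28.9 against 8.39 to 73.4 over libraries), and its gene Itga2b was 4.77-fold higher in globin-rich cells, at 12.1 CPM against 2.52.

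Embryonic chains made up nearly all of the beta-type RNA and most of the alpha-type RNA. Hbb-y was the most abundant gene at 43.4% of globin UMIs, followed by Hba-x at 33.1% and Hbb-bh1 at 10.8%. Hba-a1 gave 8.38%, Hba-a2 3.78%, Hbb-bt 0.424% and Hbb-bs 0.179%. All shares rest on 39793422 globin UMIs. Differences between libraries in the 5 larger genes were small beside the differences between genes. Reads come from transcript ends, so these are shares of molecules captured, without a length correction. Hba-a1 and Hba-a2 may be undercounted for the reason given above, which would raise the other shares.

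**Figure D2:**
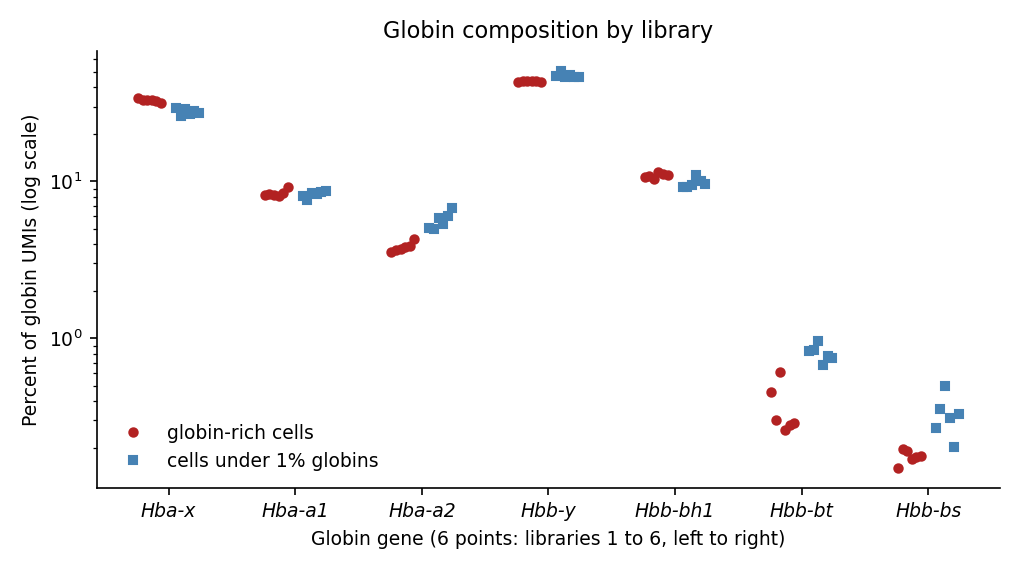
Share of each globin gene in all globin UMIs (log scale), 1 point per library, for globin-rich cells (red circles) and for cells with globins under 1% of UMIs (blue squares). Hbb-y is highest in both sets, and the blue points of Hba-a2 lie above the red ones in every library.

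The zeta gene Hba-x stood at 137336, 133353, 133585, 130846, 130209 and 126356 counts per 1000000 UMIs of all genes in libraries 1 to 6. It was highest in library 1 and lowest in library 6. Its share of alpha-type UMIs was 74.4%, 73.5%, 73.5%, 73.4%, 72.7% and 70.3% in the same order, 73.1% in all. Within single cells the share ran from 55.6% to 83.3%. Within libraries the standard deviation over cells was 5.65 to 6.85 times that of counting alone.

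The adult alpha genes were present throughout. Hba-a1 had a median of 1877 to 2424 UMIs per cell by library and Hba-a2 one of 880 to 1073, and every globin-rich cell held both. The fewest in any cell were 131 UMIs of Hba-a1 and 53 of Hba-a2. Hba-a1 and Hba-a2 together reached 0.344 to 0.422 UMIs per Hba-x UMI, lowest in library 1 and highest in library 6. Cells more filled with globin carried relatively less Hba-x: its alpha-type share was 74.1% in cells at 20 to 30% globins, 74.2% at 30 to 40%, 72.6% at 40 to 50% and 68.4% in the 33 cells above 50%. Spearman's rho between globin share and Hba-x share over cells was negative in each library, from -0.47 to -0.22. The 2 quantities come from the same UMIs and the cells of a library share its depth, so this is a description.

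Alpha-type and beta-type RNA stayed in a narrow ratio across libraries. Alpha-type genes gave 45.9%, 45.1%, 45.1%, 44.7%, 44.9% and 45.2% of globin UMIs in libraries 1 to 6. Single cells ran from 28.5% to 54.5%, with 5% and 95% quantiles of 41.2% and 48.0%. Within libraries the spread over cells was 5.82 to 7.62 times that of counting.

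Of the embryonic beta genes, Hbb-y had a median of 10133 to 12897 UMIs per cell by library, and its lowest value in any globin-rich cell was 746. Hbb-bh1 had medians of 2546 to 3166.5. Its share of embryonic beta-type UMIs was 19.8%, 19.95%, 19.3%, 20.9%, 20.4% and 20.3% in libraries 1 to 6, lowest in library 3. Single cells ran from 7.65% to 26.6%. Cells with a higher Hbb-bh1 share tended to have more detected genes, with a Spearman's rho over cells of 0.18 to 0.38 by library. They also tended to have more UMIs in all (rho of 0.19 to 0.32), and gene number and depth were not separated.

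The adult beta genes were the variable pair. Embryonic genes gave 98.9% of beta-type UMIs (98.5% in library 3 to 99.2% in library 4) and the adult pair the small remainder. Hbb-bt stood at 1818, 1222, 2444, 1041, 1117 and 1148 counts per 1000000 UMIs of all genes in libraries 1 to 6, and Hbb-bs at 599.7, 790.6, 772.6, 680.9, 696.2 and 710.4. Library 3 was highest for Hbb-bt but not for Hbb-bs, and library 1 was second for Hbb-bt and lowest for Hbb-bs. Hbb-bs therefore gave 24.8% and 24.0% of adult beta-type UMIs in libraries 1 and 3 and 38.2% to 39.5% in the other 4. Which embryos these libraries came from is not known here.

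From cell to cell both genes ranged widely. Hbb-bt had a median of 53 UMIs, a highest value of 1529 and 42 cells at 0. Hbb-bs had a median of 21, a highest value of 2137 and 71 cells at 0. The 149 cells richest in Hbb-bt held 43.4% of its UMIs, and the 149 richest in Hbb-bs held 49.6%. Within libraries the spread over cells of the share of beta-type UMIs was 8.50 to 12.5 times that of counting for Hbb-bt and 7.78 to 13.7 times for Hbb-bs. The ranks of the cells for the 2 genes were nearly unrelated: Spearman's rho between their beta-type shares was -0.03 to 0.13 by library. At least 10 UMIs of both were found in 894 cells, of Hbb-bt alone in 351, of Hbb-bs alone in 148 and of neither in 88. No globin-rich cell had a majority of adult beta-type UMIs. The lowest embryonic share of beta-type UMIs in any of them was 84.2%.

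**Figure D3:**
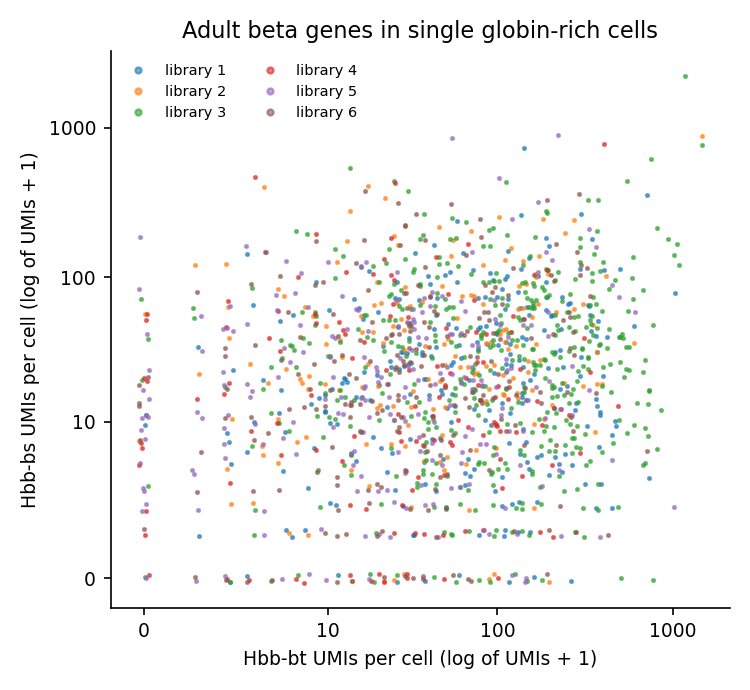
Hbb-bt against Hbb-bs UMIs in each of the 1481 globin-rich cells, coloured by library, on axes of log10(UMIs + 1) with a slight scatter added. Points fill the field without a diagonal, and points along the axes are cells at 0 for 1 of the genes.

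Genes of red cell biology accompanied the globins. Of 54 listed erythroid genes tested, 38 were at least 4-fold higher in globin-rich than in other cells, per non-globin UMI. The background was 2.69% of 10982 genes that high and 27.5% at least 4-fold lower, with a median fold of 0.597 over all genes. The 5 listed genes at least 4-fold lower were Bcl11a, Sox6, Hmox1, Kit (0.504 CPM against 8.15, the receptor of early progenitors) and Ulk1 (2.57 against 13.2). The cells were chosen by globin RNA, not by these genes, and no test was run, since libraries without a sample label were not used as replicates. Folds below are ratios of CPM over non-globin UMIs.

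Among the regulators 7 of 11 were at least 4-fold higher. Klf1, an activator of globin genes, reached 281.5 CPM against 0.997, a 282-fold ratio. Zfpm1 (FOG-1, the partner of GATA1) stood at 199 CPM, Tal1 at 113 and Gata1, a master factor of the lineage, at 87.5 against 0.465. Bcl11a and Sox6, known as repressors of embryonic beta-type genes in definitive cells and named here after their values were seen, were low: 2.54 CPM against 40.6 for Bcl11a and 3.55 against 70.4 for Sox6. Zbtb7a, another such repressor and also named after its values were seen, stood at 47.8 against 17.8.

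Haem synthesis genes were 4-fold higher in 11 of 12 cases, with a median fold of 17.1. Tmem14c, a mitochondrial porphyrin transporter, reached 2608 CPM, the haem pathway enzyme Cpox 997 and the mitochondrial iron importer Slc25a37 870. In iron handling 4 of 8 genes passed. The ferritin heavy chain Fth1 reached 14745 CPM (13.5-fold), the transferrin receptor Tfrc 257 (9.54-fold) and the ferritin receptor Ncoa4 128 (6.14-fold), while the light chain Ftl1, at 5860, was 2.73-fold higher. Membrane and skeleton genes passed in 10 of 11 cases. The anion exchanger Slc4a1 stood at 299 CPM and the skeleton anchor Ank1 at 264. Epb41, at 279 CPM, was 2.66-fold higher.

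In the redox and stability list 5 of 7 genes passed: the peroxidase Prdx2 at 5480 CPM (5.18-fold), Gpx1 at 2630 (11.7-fold), carbonic anhydrase Car2 at 1999 (178-fold) and Blvrb at 1748 (79.2-fold) were its most abundant. Hmox1, which breaks haem down, was 0.857 CPM against 13.1. Among receptors and organelle clearance genes only Epor, the erythropoietin receptor, passed (119 CPM, 82.4-fold) of 5. Bnip3l, needed for removal of mitochondria, stood at 159 CPM against 184, Xpo7 at 58.8 against 89.8, and Trim58 at 2.44 against 0.0378, too low in both sets to be tested.

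Other members of the globin family were far lower. The theta-like gene Hbq1b reached 101 CPM and had the largest fold among genes of at least 50 CPM (1514), and was found in 1389 globin-rich cells. Hbb-bh2 stood at 8.30 CPM and Hbq1a at 1.71. Myoglobin, neuroglobin and cytoglobin were each at or below 0.185 CPM. After Hbq1b, genes with the next largest folds among those of at least 50 CPM included Cldn13, Hemgn, Trim10, Pklr, Kel, Rhag, Ermap and Slc4a1, from 1401-fold down to 899-fold.

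Genes whose level moved with the chain shares were ranked over 12 points, the 6 libraries each at 30 to 40% and 40 to 50% globins. Nearest to the Hbb-bh1 share of beta-type UMIs were Zfas1 (Pearson's r = 0.928), Gtpbp4, Luc7l3, Nop58 and Nudcd2. Klf1 (r = -0.918), Hagh, Rhd, Mrps18c and Icam4 ran opposite. For the adult share of alpha-type UMIs, Eef1a1 (r = 0.827), Slc29a1, Ndufb3, Atf4 and Sars were nearest and Top1 (r = -0.889), Ubxn4, Ubtf, Aifm1 and Adrm1 farthest. Pairs of points share a library and its depth, and these are the extremes of 2477 genes, so they are listed as a description.

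Outside the globin-rich cells, globin RNA was found at a low level in nearly every cell. In the 41842 cells under 1%, the 7 genes summed to 133, 98.8, 195, 93.7, 106 and 101 counts per 1000000 UMIs of all genes in libraries 1 to 6. Library 3, which had the largest share of globin-rich cells, was the highest. The other libraries did not follow that order. Library 6, with 3.62% globin-rich cells, stood at 101, below library 1, with 3.11% and a level of 133. A globin UMI was seen in 91.7% of these cells, and in 43.5% of the 37015 deep enough after each was thinned to 5000 UMIs. The 4827 shallower cells were left out of that value. Thinned shares were close in the 4 large marker classes of all cells outside the globin-rich set, where a class needs at least 4 markers of 1 list and more than of any other. They were 38.4% in mesenchyme-marker cells, 38.5% in cardiomyocyte-marker cells, 44.8% in epithelium-marker cells and 44.7% in endothelium-marker cells. Free RNA and expression were not separated in these shares.

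The make-up of this low-level globin RNA was near, but not equal, to that of the globin-rich cells of the same library. Hba-a2 gave 38.1% to 43.7% of the adult alpha UMIs of cells under 1%, against 30.1% to 32.1% in globin-rich cells, without overlap between the 2 sets of 6 libraries. Hba-x gave 63.9% to 69.1% of alpha-type UMIs, against 70.3% to 74.4%, also without overlap. Most other shares did not overlap either. Alpha-type genes gave 38.8% to 43.0% of globin UMIs against 44.7% to 45.9%, and Hbb-y 46.1% to 50.8% against 42.9% to 43.6%. Hbb-bh1 gave 15.3% to 18.7% of embryonic beta-type UMIs against 19.3% to 20.9%. The Hba-a1 and Hbb-bh1 shares of globin UMIs and the Hbb-bs share of adult beta-type UMIs did overlap. Cells under 1% included the endothelium-marker cells described below. Pooled over libraries, alpha-type genes gave 26.4% of globin UMIs in these and Hbb-y 65.4%. In cardiomyocyte-, epithelium- and mesenchyme-marker cells, alpha-type genes gave 44.3%, 44.4% and 44.0%, against 45.2% in globin-rich cells. Hbb-y gave 45.1%, 45.1% and 45.6% there, against 43.4%. The cause of these differences was not tested, and the Hba-a2 difference rests on the uncertain split between Hba-a1 and Hba-a2.

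Endothelium-marker cells departed from the other large marker classes in their Hbb-y share. In the 2477 endothelium-marker cells under 1% globins, Hbb-y gave 62.1%, 75.6%, 63.4%, 71.9%, 59.8% and 55.9% of globin UMIs in libraries 1 to 6. In mesenchyme-marker cells it gave 45.1% to 46.7%, in cardiomyocyte-marker cells 44.4% to 46.4% and in epithelium-marker cells 44.7% to 45.6%. The endothelium-marker cells were higher in 6 of 6 libraries, by 9.49 to 30.6 percentage points against any of these 3 classes. Classes were set without globin genes. Hbb-y UMIs per Hba-x UMI were 2.47 to 6.20 in endothelium-marker cells and 1.48 to 1.69 in mesenchyme-marker cells. Hba-x itself gave 17.9% of globin UMIs in the former and 29.0% in the latter.

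**Figure D4:**
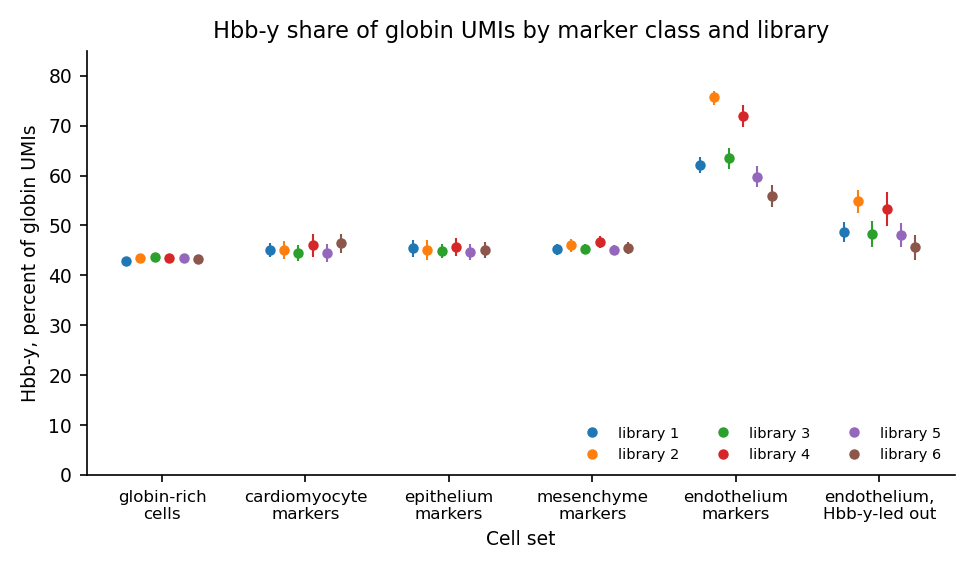
Hbb-y as a percent of globin UMIs, 1 point per library, in globin-rich cells and in 5 sets of cells under 1% globins; bars are 95% exact binomial intervals of the counting error (not drawn for globin-rich cells, where they are narrower than the points). Endothelium-marker cells stand at 55.9% to 75.6%, above the 3 other marker classes in every library, and at 45.6% to 54.9% once the cells led by Hbb-y are left out.

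The cells highest in Hbb-y were counted separately. Cells led by Hbb-y, with at least 10 Hbb-y UMIs and at least 4 times as many as of the other 6 genes together, numbered 118 of the 2477 endothelium-marker cells (4.76%, exact binomial interval 3.96% to 5.68%). These limits were set after the values had been seen, and the interval covers counting error in the pooled cells, not differences between libraries. Libraries 1 to 6 held 31, 34, 5, 19, 16 and 13 of them, 4.81%, 6.34%, 2.18%, 6.53%, 3.78% and 3.68% of their endothelium-marker cells. Among the other 39412 kept cells outside the globin-rich set there were 8, or 0.0203%. Of these, 3 were among the 57 cells with megakaryocyte and platelet markers, a share near that of the endothelium-marker cells from very few cells. None of the 5420 cardiomyocyte-marker cells was led by Hbb-y. The 118 led cells held 5195 of the 15058 globin UMIs of the endothelium-marker cells. In library 3, 5 led cells held 639 of 2037. Leaving the led cells out lowers the Hbb-y share by construction. In the remaining endothelium-marker cells it was 49.6%, above the 3 other classes in libraries 1 to 5, and in library 6 it was 45.6%, below the 46.4% of its cardiomyocyte-marker cells.

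Led cells hold mostly Hbb-y by definition, and single cells show how far this went. A cell of library 3 held 264 Hbb-y UMIs and 0 of each other globin gene among 28737 UMIs. Another of library 3, with 261 Hbb-y UMIs, held 7 of Hba-x, 3 of Hbb-bh1, 2 of Hba-a1 and 1 each of Hba-a2 and Hbb-bs. A cell of library 2 held 129 Hbb-y UMIs and one of library 1 held 121, each with 0 of the others. The median led cell had 24.5 Hbb-y UMIs and 2 of all other globin genes, and 28 of the 118 had none of the others. The median led cell held 41622 UMIs in all, against 36519 in all endothelium-marker cells, and 21 of the 118 had a barcode that another library shared. Just inside the limit, 19 led cells had 10 to 12 Hbb-y UMIs. Just outside, 30 endothelium-marker cells had 7 to 9 and at most 2 UMIs of other globins. Without cells holding 3 markers of another list, 66 of 1505 endothelium-marker cells were led by Hbb-y, or 4.39%. With a minimum of 20 Hbb-y UMIs there were 70 among the endothelium-marker cells and 0 among the mesenchyme-, cardiomyocyte- and epithelium-marker cells. With a minimum of 5 there were 189 (7.63%), against 120 mesenchyme-marker (0.969%), 43 cardiomyocyte-marker (0.793%) and 77 epithelium-marker cells (1.18%). With a minimum of 3 the contrast was smaller, at 11.3% of endothelium-marker cells against 4.63%, 3.84% and 4.59% of these 3 classes.

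**Figure D5:**
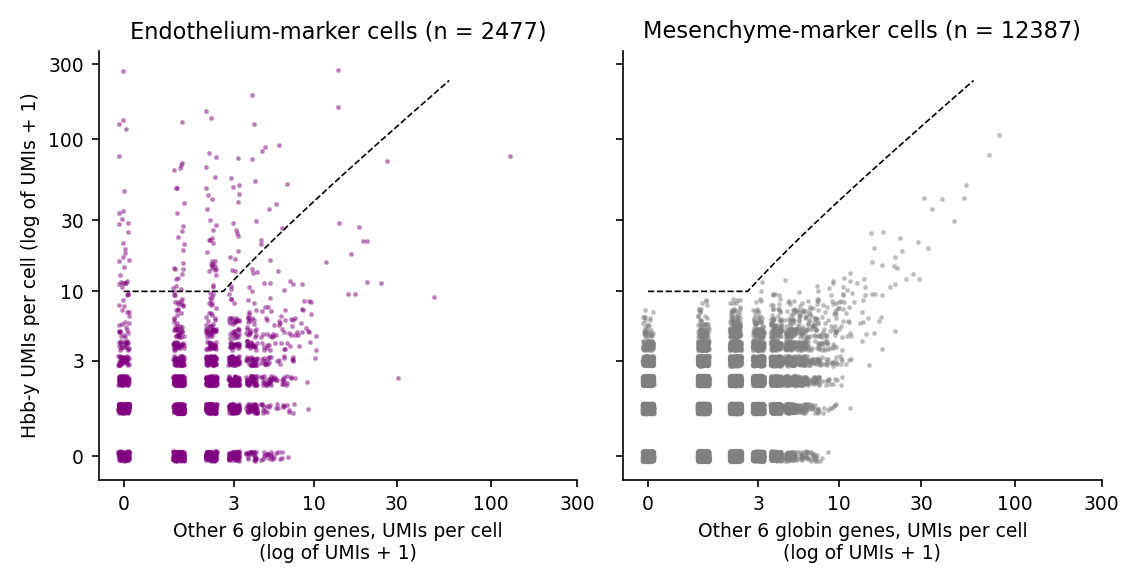
Hbb-y UMIs against the UMIs of the other 6 globin genes per cell, for endothelium-marker (left) and mesenchyme-marker cells (right) under 1% globins, on axes of log10(UMIs + 1) with a slight scatter added. The dashed line bounds the cells led by Hbb-y, 118 on the left and 1 on the right.

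Most erythroid markers had few UMIs in these cells. Gata1, Slc4a1 and Rhag were each at 0 UMIs over the 118 cells, Hemgn at 1, Klf1 at 4 and Alas2, the haem enzyme of red cells, at 10 (1.796 CPM against 1.30 in the remaining endothelium-marker cells). The 10 erythroid markers summed to 0 to 26.6 CPM over libraries in led cells and to 17.3 to 25.8 CPM in the rest, higher in led cells in libraries 2 (22.9 against 17.3) and 6 (26.6 against 20.4) and lower in the other 4, with Epor at 5.21 against 5.03 and Tfrc at 9.52 against 10.3 the largest parts. Pf4, the platelet gene, was 1.44 CPM against 10.6, and Itga2b 11.5 against 7.69. The 8 endothelium markers together were lower in led cells in 6 of 6 libraries, at 1791 to 2198 CPM against 1891 to 2431. Single markers differed: Cdh5, the junction cadherin, stood at 271 CPM against 268, Pecam1 at 217 against 212 and Kdr, a VEGF receptor, at 181 against 177. Tek and Tie1, a receptor pair, stood at 318 against 242 and 120 against 93.1, while Emcn was 288 against 544 and Cldn5 60.2 against 158.

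Among genes of at least 20 CPM in led cells, those with the largest ratio to the remaining endothelium-marker cells were Fst (a secreted activin antagonist, 26.4 against 4.10 CPM), Gm44516, B130024G19Rik, Tll1 (a BMP1-family protease needed for heart septation, 215 against 51.5), Hs3st1, Gm13889, Pak7, Oit3, Cav1 (caveolin, 40.9 against 11.2) and Gsg1. Each was higher in 6 of 6 libraries except Fst and Pak7, which were higher in 5. The genes were picked by their ratio in the pooled counts of these same libraries, so that count is no separate support. Library 3 held only 5 led cells. The ranking was chosen after seeing the data and has no test.

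Cells with megakaryocyte and platelet markers showed another mix. Of 57 such cells, 49 lay under 1% globins and 8 between 1% and 20%. In the 49, Hbb-y gave 35.5%, Hbb-bh1 26.9%, Hbb-bt 15.8%, Hba-a1 13.9% and Hba-x 4.79% of 1022 globin UMIs, with at least 10 UMIs of Hbb-bh1 in 7 cells, of Hba-a1 in 4 and of Hbb-bt in 3. Library 5 held 489 of these UMIs, and without it Hbb-y gave 14.6% and Hba-x 7.88%. Without library 3, Hba-a1 gave 9.06%. The mix varied widely by library, with Hbb-bh1 from 5.76% to 70.7% and Hbb-bt from 3.597% to 53.8%. In all classes together, 7 cells were led by Hbb-bh1 and 5 of them had these markers. The 8 richer cells included uneven mixes. One of library 1 had 905 Hbb-y UMIs with 34 of Hba-a1 and 0 of Hba-x, beside 91 Pf4 UMIs and 43 of Itga2b, both megakaryocyte genes. One of library 6 had 251 Hbb-bt and 62 Hba-a1 UMIs with 0 of Hbb-y, 0 of Hbb-bs and 1 of Hba-x, beside 128 Pf4 and 16 Gata1 UMIs. With so few cells these are single observations.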

How the data were processed

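The deposited values are UMI counts, whole numbers per gene and barcode, in 1 matrix that holds every library. Per the file headers, Cell Ranger 5.0.0 wrote it. The submitters' processing notes name CASAVA 1.8, Seurat 4 and build mm10. The sources used here do not give the counting settings. Libraries held 200462921 to 248426458 UMIs. Blank droplets, free RNA and doublets were not modelled, so a globin UMI in a cell may come from another cell.

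From these counts, shares were computed over summed UMIs with 95% exact binomial (Clopper-Pearson) intervals, and levels as counts per 1000000 UMIs (CPM) with exact Poisson intervals. Both cover counting error only. Libraries without a sample label were not used as replicates, so no test was run. Genes of at least 5 CPM in either set of cells were compared, called at 4-fold, and a fold against 0 counts used 3. Of each list the 4 most abundant genes are named, and over all genes the 10 largest folds from 50 CPM upward, except some genes that are not reported here. The comparison was checked on simulated counts. The globin genes and lists were chosen with earlier results of these data known. Ahsp, Eraf and Hba-ps4 were looked up and matched no symbol. Alternatives changed the cell limits, marker filters, libraries and shared barcodes. Python 3.11.15, NumPy 2.4.6 and SciPy 1.17.1 were used.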

Additional observations from a re-analysis of the deposited data

Results flagged for a closer look

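Outside the kept cells, 21 barcodes carried mainly adult-type globin RNA, a pattern that no kept globin-rich cell showed. They failed the minimum of 1000 genes, with 126 to 622 genes and 604 to 7985 UMIs, and 70.1% to 94.0% of their UMIs were globin. Library 3 held 16 of them, library 2 held 4 and library 4 held 1. Hbb-bs gave 60.6% of their 68287 globin UMIs, Hba-a1 16.5%, Hba-a2 12.6% and Hbb-bt 10.3%. Hba-x, Hbb-y and Hbb-bh1 came to 28, 31 and 10 UMIs over all 21. Hbb-bs exceeded Hbb-bt in each of the 21, and gave 85.5% of adult beta-type UMIs against 29.7% in the globin-rich cells. Alpha-type genes gave 29.1% of globin UMIs against 45.2%. That share rests on the Hba-a1 and Hba-a2 counts, which may be too low if reads fitting both genes were left out. None of these barcodes occurred in another library. Gm42418, Tpt1, Ftl1, Ubb, Bpgm and Alas2 were among the leading genes of their non-globin RNA. Where these droplets came from was not tested.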

How the results depend on the processing

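The 4 chain shares moved little under the settings tried. Shares of the 7 single genes were not recomputed. The Hba-x share of alpha-type UMIs was 72.4% at a 40% globin minimum, 73.0% with no gene minimum, 73.0% without cells holding 3 markers of another list, 73.5% without shared barcodes, 73.2% at 30 to 50% globins, 73.3% as a median over cells, and 72.8% to 73.6% with each library left out. The embryonic share of beta-type UMIs was 98.9% at a 10% globin minimum, 98.8% at 40%, 98.7% with no gene minimum, 98.9% without cells of other markers, 98.8% without shared barcodes, 98.9% at 30 to 50%, 99.3% as a median, and 98.9% to 99.1% with a library left out. The alpha-type share was 45.2% at 10%, 45.1% at 40%, 45.2% with no gene minimum, 45.2% without cells of other markers, 45.1% without shared barcodes, 45.3% at 30 to 50%, 45.2% as a median, and 45.1% to 45.3% with a library left out. The Hbb-bh1 share of embryonic beta-type UMIs was 19.7% at 40%, 19.6% without shared barcodes, 19.95% at 30 to 50%, 19.8% as a median, and 19.8% to 20.2% with a library left out. Globin-rich cells numbered 847 at a 40% minimum, 2245 with no gene minimum, and 1034 to 1352 with a library left out. The globin level in all other kept cells was 411 counts per 1000000 UMIs, of which the 47 cells at 1 to 20% gave most: it was 123.5 under 5%, 119 under 1%, 105.4 as a median, 419 with no gene minimum, 417 at a 20% mitochondrial limit, 336 without shared barcodes, and 360 to 463 with a library left out. Globin-rich cells with an adult beta-type majority went from 0 to 21 with no gene minimum and stayed 0 with any library left out. Listed erythroid genes called numbered 38 with any library left out. The Hbb-y share in endothelium-marker cells was 66.6% with at least 6 markers, 62.1% without cells holding 3 markers of another list, 64.3% without shared barcodes, and 62.2% to 66.8% with a library left out. Cells led by Hbb-y numbered 66 of 1505 (4.39%) without cells holding 3 markers of another list, 189 with at least 5 Hbb-y UMIs, 70 with at least 20, and 84 to 113 with a library left out. The settings for shared barcodes, the 30 to 50% range, Hbb-y and the megakaryocyte-marker cells were chosen after seeing the data. For streptozotocin against vehicle, no paired analysis was possible because the columns carry no replicate number of the labels. Cell sets within the 6 libraries could be paired by library. They were compared that way without a test, since unlabelled libraries were not used as replicates. Depth limits single cells with few globin UMIs, where a share cannot be read.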

Other observations

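Among the 47 kept cells between 1% and 20% globins, 39 carried at least 3 markers of another cell type. Of the 26 above 10%, 23 did, and their median was 82638 UMIs. In 3 of the 47, adult genes made up most of the beta-type RNA. One of library 3 held 2692 Hbb-bs, 501 Hbb-bt, 529 Hba-a1 and 375 Hba-a2 UMIs beside 1 each of Hba-x and Hbb-y. One of library 2 held 535 Hbb-bs, 168 Hba-a1 and 125 Hba-a2 UMIs beside 1 of each embryonic globin gene. Libraries 2 and 3 also held 20 of the 21 adult-type barcodes described above. The third was the library 6 cell with Hbb-bt and megakaryocyte genes.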
